A study of Mus musculus with 12 samples.

Results

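The 10 genes described here direct the formation of fat cells or serve their early lipid metabolism: Pparg, Cebpa, Cebpb, Cebpd, Zfp423, Ebf1, Srebf1, Pnpla2, Fabp4 and Adipoq. They were chosen by name from 21938 protein-coding genes of the mouse, and the choice was made with an H3K27ac interval called in hypoxia at a start of Pparg already known. The presence or absence of the intervals below is therefore a description, and no test was run on it. Chromatin immunoprecipitation followed by sequencing (ChIP-seq), which recovers the DNA wrapped around histones with a given modification, had been carried out on mesenchymal stem cells (MSCs) of mouse bone. All groups were C57BL/6N MSCs from animals aged 3 to 5 months, labelled as bone-marrow MSCs, and the study's methods describe cells grown out from crushed hind-limb bone in low oxygen and sorted as CD45-, Ter-119-, Sca-1+ and CD140a+. The hypoxia cells stayed at 2% O2 and the normoxia cells were moved to 21% O2. H3K27ac, H3K4me3 and an input control at each oxygen level gave 6 groups of 2 libraries each.

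The authors called 1 list of enriched intervals for each mark and oxygen level, so that 4 lists cover both libraries of a group together. An interval has a position and a score. The score is a value of the authors whose definition is not given in the sources used here. It ran from 50 to 160, with the remaining intervals at 1000 and none between, so that a step from 1000 to a value near 100 has no known size. Scores were ranked within a list, and their differences between lists are given as written, on this undefined scale. No list held read counts or values of single libraries, so the depth and the spread between replicates are unknown, and no difference below has a replicate check or a p-value. Intervals of different lists were either identical or did not touch the same bases, and H3K4me3 had the same score at both oxygen levels in all 14600 intervals it shared. With scores identical throughout, the H3K4me3 lists cannot be read as separate measurements of each oxygen level. H3K4me3 at both oxygen levels thus refers below to the calls, which do not measure its stability. An H3K27ac interval with no base in the list of the other oxygen level is called hypoxia-only or normoxia-only. There were 589 hypoxia-only intervals among 15203 and 218 normoxia-only intervals among 14832, whereas 6 and 3 H3K4me3 intervals were called at 1 oxygen level.

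Fat cells arise from mesenchymal progenitors through a cascade of transcription factors. C/EBPβ and C/EBPδ are induced first and activate Pparg and Cebpa, whose products PPARγ and C/EBPα then maintain each other's expression and switch on the genes of lipid storage. ZFP423 and EBF1 act in the commitment of progenitors to the fat lineage, SREBP-1 turns on fatty acid synthesis, and adiponectin, the product of Adipoq, is a hormone of the mature fat cell. In marrow, the same progenitors can form bone. H3K27ac marks active promoters and enhancers, and H3K4me3 marks mainly promoters, including many that are poised rather than active.

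The labelled cell type was compared with its markers. Of 11 mesenchymal stromal genes, 10 had H3K4me3 over a start and 8 had H3K27ac, at both oxygen levels, among them Pdgfra, which encodes CD140a, and Prrx1. Ly6a, which encodes Sca-1, had H3K27ac and no H3K4me3. Of the blood cell genes, Csf1r had H3K27ac over a start, and Ptprc, which encodes CD45, had neither mark. Of 4 endothelial genes Kdr had H3K4me3, and of 6 genes of the mature fat cell Cidea had H3K4me3. No H3K27ac lay over a start of either of these last lists. Among all protein-coding genes, 58.1% had H3K4me3 over a start. H3K27ac lay over a start of 36.8% of all genes in hypoxia and of 36.2% in normoxia.

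The promoters are shown first, because the genes differed in what was called at their starts. A start is the first base of a protein-coding transcript in the GENCODE M21 basic annotation. The RefSeq promoter table holds 250 bases before and 50 bases after a start (GRCm38.p6, the same build as mm10), and 8 of the 10 genes had entries in it. The sequences below are on the plus strand, 5′ to 3′, with each CG pair in capitals. They are the 3 promoters of Pparg, the promoter of Pnpla2, where H3K27ac was also hypoxia-only, that of Cebpa, marked at both oxygen levels, and that of Adipoq, with neither mark.
Pparg, outer start, chr6:115360894-115361193: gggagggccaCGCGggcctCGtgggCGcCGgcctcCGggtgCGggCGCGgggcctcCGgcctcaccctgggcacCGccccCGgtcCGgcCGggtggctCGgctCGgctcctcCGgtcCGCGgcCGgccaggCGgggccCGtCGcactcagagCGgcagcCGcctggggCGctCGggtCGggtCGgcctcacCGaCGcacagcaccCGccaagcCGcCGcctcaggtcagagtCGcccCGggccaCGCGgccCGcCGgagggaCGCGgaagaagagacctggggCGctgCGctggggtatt
Pparg, second start, chr6:115362099-115362398: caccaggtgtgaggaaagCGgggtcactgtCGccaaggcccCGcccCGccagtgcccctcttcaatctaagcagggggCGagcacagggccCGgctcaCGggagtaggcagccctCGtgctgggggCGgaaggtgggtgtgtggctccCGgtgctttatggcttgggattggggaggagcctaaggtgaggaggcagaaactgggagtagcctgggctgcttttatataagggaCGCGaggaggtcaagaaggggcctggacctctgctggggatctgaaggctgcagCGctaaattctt
Pparg, inner start, chr6:115421816-115422115: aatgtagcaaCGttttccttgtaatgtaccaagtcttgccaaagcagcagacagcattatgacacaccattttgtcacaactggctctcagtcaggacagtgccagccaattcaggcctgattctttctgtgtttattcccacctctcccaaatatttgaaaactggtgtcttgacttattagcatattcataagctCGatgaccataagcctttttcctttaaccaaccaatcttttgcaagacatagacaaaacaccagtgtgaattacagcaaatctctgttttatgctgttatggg
Pnpla2, chr7:141454938-141455237: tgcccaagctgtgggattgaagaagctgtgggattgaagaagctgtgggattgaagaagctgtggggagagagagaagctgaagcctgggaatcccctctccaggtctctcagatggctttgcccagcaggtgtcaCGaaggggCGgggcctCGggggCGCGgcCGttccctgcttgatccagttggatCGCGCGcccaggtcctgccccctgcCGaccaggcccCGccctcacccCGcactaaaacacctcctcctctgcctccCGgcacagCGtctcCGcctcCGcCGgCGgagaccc
Cebpa, chr7:35119043-35119342: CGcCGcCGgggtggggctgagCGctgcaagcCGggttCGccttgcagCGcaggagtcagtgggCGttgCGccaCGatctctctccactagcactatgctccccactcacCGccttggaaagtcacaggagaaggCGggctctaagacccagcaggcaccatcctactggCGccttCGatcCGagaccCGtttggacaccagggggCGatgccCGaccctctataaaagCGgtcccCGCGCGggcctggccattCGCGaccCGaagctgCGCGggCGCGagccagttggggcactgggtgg
Adipoq, chr16:23146286-23146585: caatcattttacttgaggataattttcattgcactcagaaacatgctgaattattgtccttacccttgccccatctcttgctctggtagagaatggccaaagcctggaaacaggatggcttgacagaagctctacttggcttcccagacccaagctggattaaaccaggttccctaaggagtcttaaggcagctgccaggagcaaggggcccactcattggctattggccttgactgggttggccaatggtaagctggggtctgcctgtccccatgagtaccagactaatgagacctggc

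The CG pairs of these promoters ranged widely. The outer promoter of Pparg held 44 CG pairs and a GC content of 80.3%, the second held 13 and the inner promoter held 2. Pnpla2 had 18, Cebpa 29 and Adipoq 0. Over all 32851 promoters of the table, the median was 22 CG pairs where the start lay in H3K4me3 (n = 13774) and 3 where it did not (n = 19077). The inner promoter of Pparg and the promoter of Adipoq, both without a mark, thus lay at or below the median of unmarked promoters. The promoter of Zfp423 at 87804439, not printed and also unmarked, held 7 CG pairs. This was above the upper quartile of unmarked promoters, 6. Promoters with H3K4me3 and hypoxia-only H3K27ac had a median of 20 (n = 147), the same as those with H3K4me3 and no H3K27ac and fewer than the 24 of promoters with both marks at both oxygen levels.

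**Figure D1:**
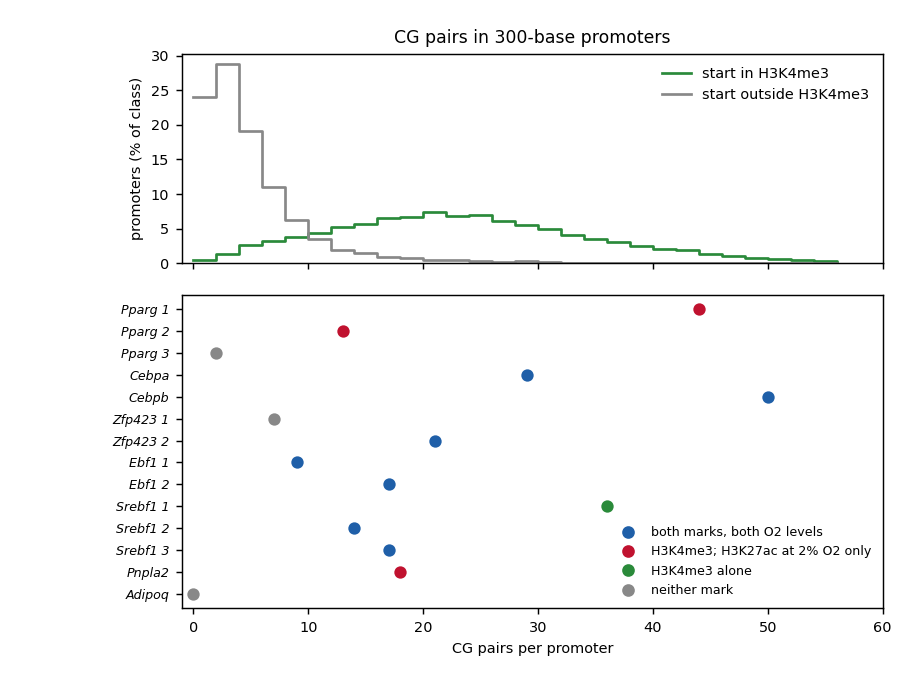
CG pairs in RefSeq promoters of 300 bases. The upper panel gives the share of promoters (%) by number of CG pairs for starts inside and outside H3K4me3, and the lower panel gives each promoter of the 8 genes with an entry, numbered by position on the chromosome and coloured by the marks over its start. Both unmarked promoters printed above, Pparg 3 with 2 pairs and Adipoq with 0, lie at the left end.

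Short motifs of transcription factors were searched on both strands of the same promoters. TTGCNNAA, a core of C/EBP sites, was found at 2 places in the inner promoter of Pparg, 215 and 16 bases before the start, and in none of the 2 outer ones. It occurs in 10.8% of all promoters. AGGTCA, the core element of nuclear receptors, was present once in each of the outer promoters of Pparg, 28 and 9 bases before the start, and in 16.3% of all promoters. The GC box GGGCGG was found in the promoter of Pnpla2 at 109 and 26 bases before the start, and in 35.7% of all promoters. TATAAA lay 30 bases before the start of Cebpa (13.6% of all promoters), and CCAAT occurred 3 times in the promoter of Adipoq (37.4%). ACGTG, the core of the element bound by hypoxia-inducible factors, was found in 1 of the 14 member promoters, that of the second RefSeq start of Ebf1, and in 19.6% of all promoters. The motifs other than ACGTG also occurred in further member promoters. TTGCNNAA lay in the outer promoter of Zfp423, marked at both oxygen levels, and AGGTCA in an inner one. GC boxes were also found in the outer promoters of Pparg and at Cebpb, Zfp423 and Srebf1. TATAAA recurred at Pparg and Cebpb, and CCAAT at Pparg and Srebf1. These matches are letters in a window and do not show binding.

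Each gene was then read with 20000 bp on each side of its body. These windows held 37 distinct intervals of the 22555 in the 4 lists. H3K27ac accounted for 30 intervals in hypoxia and 25 in normoxia, and H3K4me3 for 19 at each oxygen level. Of the 30 H3K27ac intervals, 23 had the gene's own start as the nearest coding start and 7 lay nearest to another gene, most of them around Pnpla2. At least 1 hypoxia-only H3K27ac interval lay in the window of 5 of the 10 genes, namely Pparg, Zfp423, Ebf1, Srebf1 and Pnpla2. The same held for 4.7% of all protein-coding genes. A normoxia-only interval lay in the window of 0 of the 10 genes, against 1.15% of all genes, and an H3K4me3 interval called at 1 oxygen level in that of 0, against 0.0638%. Of the intervals, 5 of the 30 in hypoxia were hypoxia-only, against 3.87% of the whole list. Without the lowest-scoring 25% of the list only Pparg kept a hypoxia-only interval, against 1.14% of all genes. Since the genes were selected on this contrast, these counts carry no test.

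Gene length bears on such counts, because a longer window can hold more intervals. Among genes with bodies of at least 100000 bp, 5.78% had a hypoxia-only interval in the window, and of the 3 such members (Pparg, Zfp423 and Ebf1) all had one. Among shorter genes the share was 4.57%, and 2 of 7 members had one. The median window was 48.5 kb for the 10 genes and 57.4 kb for all genes. Per Mb of window, the members held 3.93 hypoxia-only intervals and all genes pooled 0.559.

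**Figure D2:**
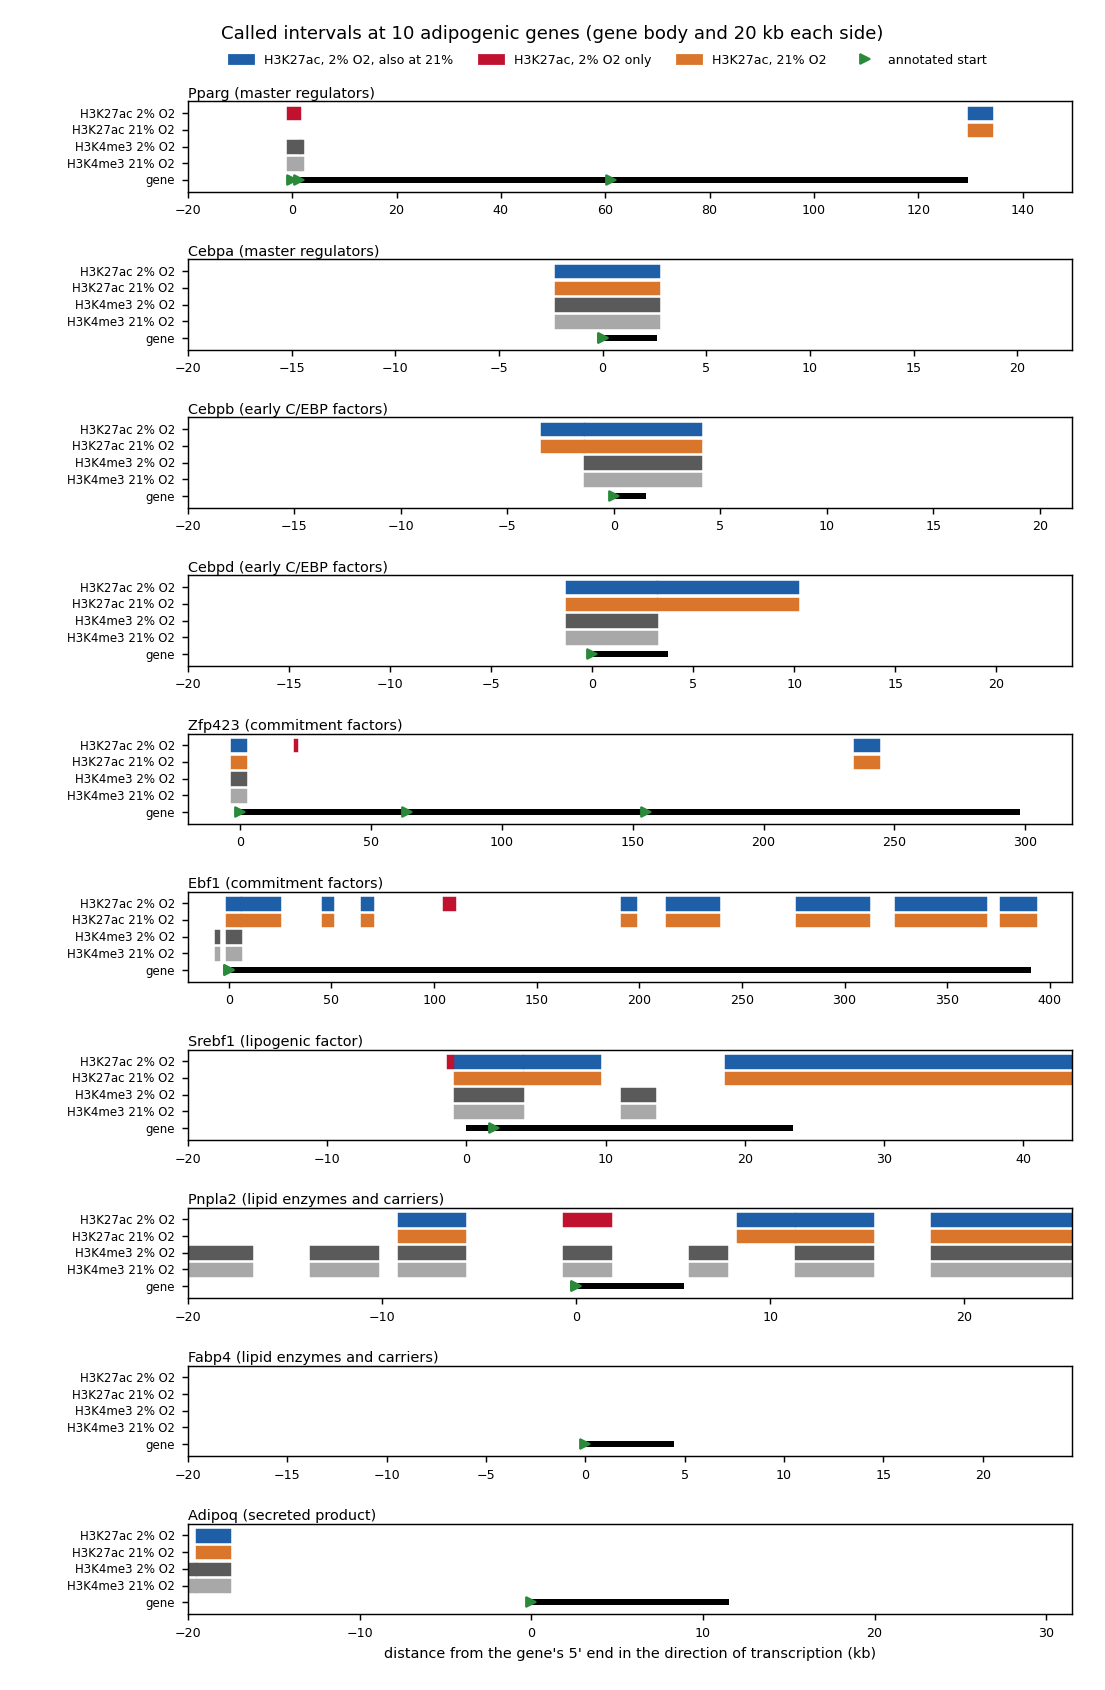
Called intervals at the 10 genes. Each panel shows distance from the gene's 5′ end in kb in the direction of transcription, with 1 row for each mark and oxygen level, the gene body as a black bar and annotated coding starts as green arrows. Red boxes are the 5 hypoxia-only H3K27ac intervals, over starts of Pparg and Pnpla2, inside Zfp423 and Ebf1 and just upstream of Srebf1, and the panel of Fabp4 is empty.

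The starts were compared next. H3K4me3 lay over a coding start of 8 of the 10 genes at both oxygen levels, all but Fabp4 and Adipoq, against 58.1% of all genes. H3K27ac lay over a start of the same 8 genes in hypoxia (36.8% of all genes) and of 6 in normoxia (36.2% of all genes). The difference of 2 genes was made by Pparg and Pnpla2, whose starts lay in hypoxia-only intervals. This was the case for 0.82% of all genes and for 1.3% of the 12753 genes with H3K4me3 over a start. A start in a normoxia-only interval was found in 0.0957% of all genes and in 0 of the 10.

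Pparg encodes PPARγ, the nuclear receptor without which fat cells do not form, and lies on the plus strand of chromosome 6 from 115360951 to 115490399. Its window of 169 kb held 2 H3K27ac intervals in hypoxia and 1 in normoxia. The hypoxia-only interval spanned 2500 bp from 115360001 to 115362500, over the first exon and the outer start of the gene. It held the coding starts at 115360951 and 115362292, and the RefSeq starts of the first pair of promoters printed above, at 115361144 and 115362349. Both annotated transcripts encode a protein of 475 codons, the form PPARγ1, which is found in many tissues. Its score was 101, above 92.7% of the 589 hypoxia-only intervals, of which 40 scored higher, and below the median of the whole hypoxia list, 111. H3K4me3 was called over the same bases with a score of 129 at both oxygen levels, and went on for a further 500 bp to 115363000. The nearest H3K27ac of the normoxia list was 128 kb away.

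The third coding start of Pparg behaved differently in the lists. The transcript from 115422066 encodes 505 codons, the form PPARγ2, which is largely restricted to fat cells. No interval of any list lay over it, and 68.4 kb separated it from the nearest H3K27ac in normoxia. The other H3K27ac interval of the window, from 115490501 to 115495000, began 102 bp past the 3′ end of the gene, and its score was 118 in hypoxia and 125 in normoxia. Thus the only H3K27ac of the Pparg body was the hypoxia-only interval at its outer end.

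The GC content of the Pparg interval, a property that ChIP-seq recovery can depend on, was 56.5%. The hypoxia-only intervals with H3K4me3 had a median of 53.8% (n = 176), those without it 47.4% (n = 413) and normoxia-only intervals 43.8% (n = 218). The part of GC content in the call was not tested. A start in a hypoxia-only interval with H3K4me3 at both oxygen levels, the state of Pparg, was found in 150 other genes, with a median score of 65. In 26 of them the score was above that of Pparg. The genes nearest to it in score were Rspo2 (101), Sfrp2 (102), Adamtsl3 (99), Cuedc2 (99) and Zcchc24 (103).

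Cebpa encodes C/EBPα, the partner of PPARγ in the mature fat cell. It lies on chromosome 7 from 35119293 to 35121928, and a single interval from 35117001 to 35122000 covered the whole gene. H3K27ac was called there at both oxygen levels, with a score of 1000 in hypoxia and 102 in normoxia. H3K4me3 scored 1000 at both. Both master regulators thus had H3K4me3 called over a start in both lists. H3K27ac was missing from the normoxia list at Pparg and had the lower score there at Cebpa. What the change of score at Cebpa amounts to in reads is unknown.

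The early factors had the same intervals at both oxygen levels. Cebpb encodes C/EBPβ and lies on chromosome 2 from 167688915 to 167690418. The interval from 167687501 to 167693000 covered it with an H3K27ac score of 1000 in both lists and an H3K4me3 score of 126. A second H3K27ac interval touched it upstream, from 167685501 to 167687500, and scored 63 in hypoxia and 55 in normoxia. Cebpd, which encodes C/EBPδ, lies on chromosome 16 from 15887286 to 15891031 and had H3K27ac at 1000 in both lists over its start, from 15886001 to 15890500, with H3K4me3 at 135. The acetylated interval next to it, from 15890501 to 15897500 over the 3′ end, scored 60 in hypoxia and 61 in normoxia. In share of the window, H3K27ac covered 18.1% at Cebpb and 26.3% at Cebpd, alike in both lists.

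Of the commitment factors, Zfp423 encodes a zinc finger protein of preadipocytes. It occupies 87661810 to 87959595 of chromosome 8, minus strand. Its outer start lay in an interval from 87957501 to 87963000 with H3K27ac at 125 in hypoxia and 126 in normoxia and H3K4me3 at 131. The coding starts inside the gene, at 87895735 and 87804439, carried no interval, so that here as at Pparg only the outer promoter was marked. The hypoxia-only interval was small, 1000 bp from 87938001 to 87939000, in an intron 20.6 to 21.6 kb into the gene. Its score of 56 was below that of 327 other hypoxia-only intervals, and it lay 18.5 kb from the nearest H3K27ac of normoxia. A further intronic interval from 87715501 to 87725000 scored 63 in hypoxia and 64 in normoxia.

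Ebf1 had by far the most acetylated sequence of the 10 genes. It encodes a transcription factor that acts in B cells, in stromal cells and in the fat lineage, and lies on chromosome 11 from 44617317 to 45008091. Its window held 10 H3K27ac intervals in hypoxia and 9 in normoxia, with 173.5 kb and 167.5 kb of acetylated bases. More was found in 13 of the other protein-coding genes. In share of the window this was 40.3% and 38.9%. The interval over the start, from 44616001 to 44623000, had H3K27ac at 131 in both lists and H3K4me3 at 133. The remaining acetylated intervals lay across introns and exons to just past the 3′ end. The widest spanned 44500 bp from 44942001 to 44986500, with scores of 93 in hypoxia and 84 in normoxia.

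The hypoxia-only interval of Ebf1 spanned 6000 bp from 44721501 to 44727500, in an intron 104 to 110 kb into the gene, without H3K4me3. Its score was 66 and its GC content 42.4%, the lowest of the 5. The nearest H3K27ac of normoxia was 34 kb away. Of the 9 shared intervals of the window, 7 had the higher score in hypoxia, 1 was equal and 1 was lower, with a median difference of 8. The largest gap was at the interval from 44662501 to 44668000, with 85 against 64. Ptprc, a general marker of blood cells, had neither mark over a start.

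Srebf1 encodes SREBP-1 and occupies 60199089 to 60222581 of chromosome 11, minus strand. H3K27ac covered 56.6% of its window in hypoxia and 55.8% in normoxia, a share higher than that of 98.8% of all genes in hypoxia. The interval over the annotated coding start, from 60218501 to 60223500, scored 131 in hypoxia and 130 in normoxia, with H3K4me3 at 134. The hypoxia-only interval was a single step of the calling grid, 500 bp from 60223501 to 60224000, and touched this shared interval on its upstream side. In hypoxia the acetylated stretch at the start thus ran 500 bp farther upstream. RefSeq gives a further start at 60210471, inside the gene, where the form SREBP-1c begins. There H3K4me3 was called from 60209001 to 60211500 with a score of 50, the lowest in the list, and no H3K27ac was called. The wide interval at the 3′ side, from 60178001 to 60204000, scored 63 in hypoxia and 51 in normoxia and lay nearest to a start of Rai1.

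Pnpla2 encodes ATGL, the enzyme that begins the breakdown of stored triglyceride, and lies on chromosome 7 from 141455198 to 141460743 in a dense cluster of genes. Its hypoxia-only interval covered 2500 bp from 141454501 to 141457000, over its start, with H3K4me3 at 140 at both oxygen levels. The score of 61 was lower than that of Pparg, and 231 hypoxia-only intervals scored higher. The nearest H3K27ac of the normoxia list was 5 kb away. On the upstream side, at Rplp2, the score was 119 in hypoxia and 90 in normoxia, and near Cracr2b it was 114 and 65. The interval at Cd151 scored 1000 in hypoxia and 143 in normoxia, and that at Polr2l and Tspan4 scored 1000 in both. Acetylation at Pnpla2 was thus called in hypoxia alone, between acetylated intervals called in both lists, of which 3 had the higher score in hypoxia. Not all neighbours were acetylated. H3K4me3 intervals over a start of Slc25a22, of Pidd1 and of Cracr2b had no H3K27ac at either oxygen level. The H3K27ac near Cracr2b lay 90 bp from a start and covered none.

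The last pair are genes of the differentiated fat cell. Fabp4, which encodes the fatty acid carrier aP2, lies on chromosome 3 from 10204088 to 10208576, and no interval of any list lay in its window. The same was true of 28.2% of all genes. The nearest H3K27ac of normoxia was 80.6 kb from its start. Adipoq, on chromosome 16 from 23146536 to 23158028, had no interval over its body. The intervals of its window lay at the far edge, at Rfc4, where the acetylated one ended 17.5 kb upstream of Adipoq and scored 1000 in both lists. H3K27ac was thus called at a start of each of the 8 regulators and lipid genes other than these 2 in hypoxia.

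The windows end 20000 bp from each gene. Inside this limit, the H3K27ac interval farthest from a gene was that of Rfc4 just described. Just outside it were an interval 22.8 kb from Cebpd with a score of 69, nearest to Mzt2, and 1 at 25.9 kb from Cebpb with a score of 58. The next, 29.9 kb from Cebpb, was hypoxia-only, 15000 bp wide and scored 56.

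**Figure D3:**
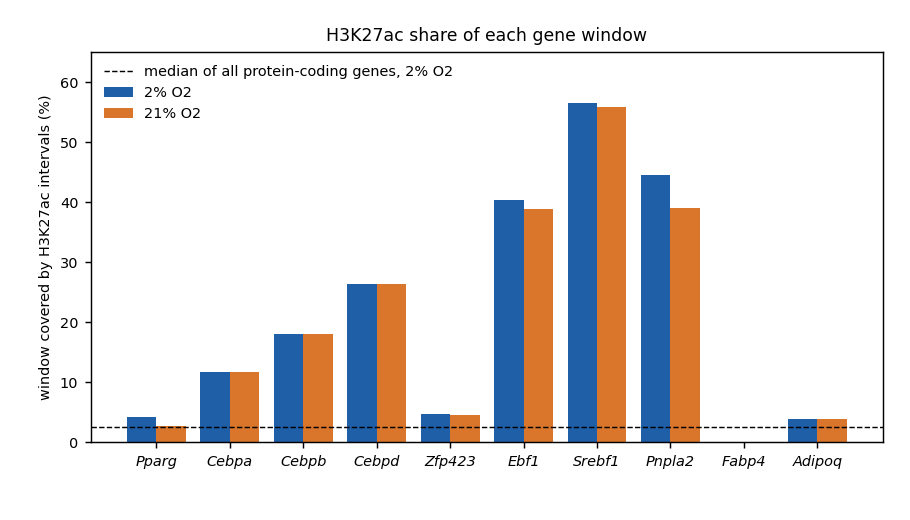
Share of each gene's window (%), gene body and 20 kb on each side, that H3K27ac intervals covered at 2% O2 (blue) and 21% O2 (orange). The dashed line is the median of all protein-coding genes at 2% O2, 2.56%. Srebf1, Pnpla2 and Ebf1 are the highest, Fabp4 has none, and Pnpla2 (44.4% and 39.0%) and Pparg (4.13% and 2.66%) have unequal bars. Each bar counts all intervals of the window. Most of those at Pnpla2 and the widest at Srebf1 lay nearest to other genes.

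Taken over all 10 windows, H3K27ac covered 278.7 kb in hypoxia and 266.2 kb in normoxia of 1.27 Mb, or 21.9% and 20.9%. The difference was made by the 5 hypoxia-only intervals alone, since shared intervals hold the same bases. Ebf1 alone held 62.3% of the acetylated bases in hypoxia. These shares also count intervals nearest to other genes, among them most of those around Pnpla2 and the widest at Srebf1. The median of the 10 genes was 14.9% in each list, against medians of 2.56% and 2.45% over all genes, of which 44.8% had no H3K27ac in the window in hypoxia. Single genes moved more than these totals. At Pparg H3K27ac covered 7.0 kb in hypoxia and 4.5 kb in normoxia, or 4.13% and 2.66% of the window, and at Pnpla2 44.4% and 39.0%. Cebpa, Cebpb, Cebpd and Adipoq had the same acetylated bases in both lists.

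The scores of the 25 H3K27ac intervals called at both oxygen levels were compared last for the 10 genes. The score was higher in hypoxia in 14, equal in 6 and higher in normoxia in 5, with a median difference of 1. Over all 14614 shared intervals, 39.9% had the higher score in hypoxia and 16.6% in normoxia, with a median difference of 0. Among the 18 intervals whose nearest coding start was that of the gene itself, 10 were higher in hypoxia and 4 in normoxia, and Ebf1 gave 7 of these 10. In all, 6 of the 25 scored 1000 in hypoxia and 4 in normoxia, beside 3372 and 2802 of all 14614, which are like shares. Apart from Cebpa and Cd151, which moved from 1000, the largest falls were near Cracr2b and at Rplp2, and neither is a gene of the list.

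**Figure D4:**
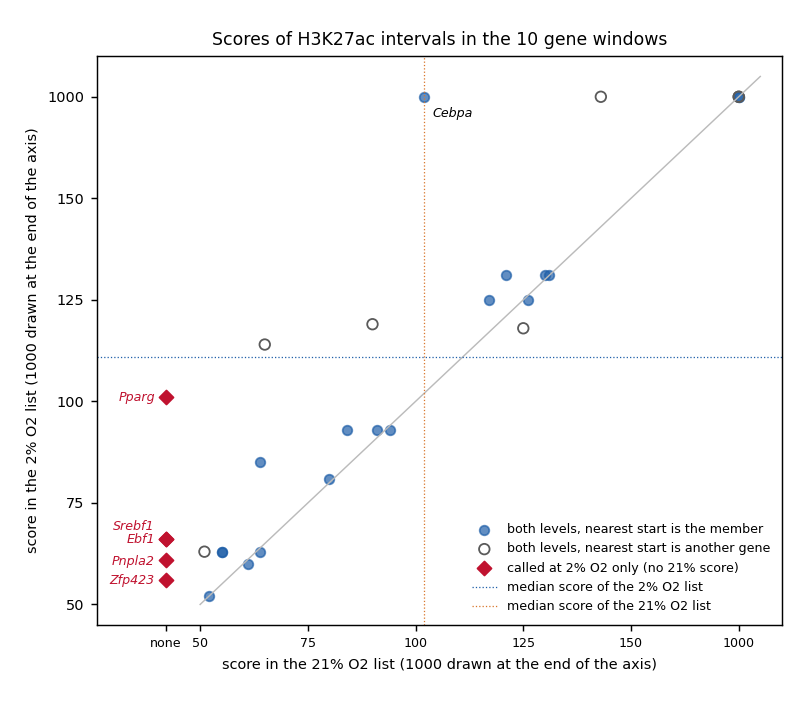
Scores of the H3K27ac intervals in the 10 windows in the 2% O2 list (vertical axis) and the 21% O2 list (horizontal axis), where 1000 is drawn at the end of each axis and the grey line marks equal scores. Red diamonds are the 5 hypoxia-only intervals, which have no 21% score, and that of Pparg, at 101, stands above the other 4, at 56 to 66.

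To place the 10 genes within the wider pathway, 75 further fat cell genes in 9 roles were read in the same way. A hypoxia-only H3K27ac interval lay in the window of 8 of them (10.7%), beside the 4.7% of all genes given above, and a normoxia-only interval in that of 0. H3K4me3 lay over a start of 63 of the 75 (84.0%) at both oxygen levels, against 58.1% of all genes. H3K27ac lay over a start of 41 (54.7%) in hypoxia, against 36.8% of all genes, and of 38 (50.7%) in normoxia, against 36.2%. These shares of all genes also stand beside the counts of each role below. The state of Pparg, H3K4me3 at both oxygen levels with H3K27ac in hypoxia alone, was found at 2 of them, Stat5a and Gata2.

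Among the partners of PPARγ, 9 of 10 genes had H3K4me3 over a start and 6 had H3K27ac at both oxygen levels, among them its dimer partner Rxra and the corepressor Ncor1. The hypoxia-only interval in the window of Ppard scored 78 and lay at the start of Fance. Of the other members of the C/EBP family, Ddit3, whose product CHOP blocks C/EBP factors, had a hypoxia-only interval of 7000 bp with a score of 51, and Cebpe had neither mark over a start.

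The early inducers, which act before or with PPARγ, had H3K4me3 over a start in 13 of 13 genes and H3K27ac in 10 in hypoxia and 9 in normoxia. The difference was Stat5a, which encodes a signal transducer of growth hormone and prolactin, with a hypoxia-only interval of 3000 bp over its start and a score of 62. The window of Stat5b held that same interval, and a further one of 41000 bp in the window of Stat5a scored 51 and lay nearest to a start of Stat3. Klf4, Klf9, Klf15, Nr3c1, which encodes the glucocorticoid receptor, and the EBF1 relative Ebf3 had both marks at both oxygen levels, whereas Klf5 and Ebf2 had H3K4me3 alone.

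Of 8 inhibitors of fat cell formation, all had H3K4me3 over a start, 5 had H3K27ac in hypoxia and 4 in normoxia. Here the difference was Gata2, a GATA factor of preadipocytes, with 7000 bp and a score of 56 over its start. Calls of hypoxia-only H3K27ac thus fell on an inducer as well as on an inhibitor. Dlk1, Gata3 and Wnt10b had H3K4me3 alone.

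In the SREBP pathway, 7 of 7 genes had H3K4me3 over a start, 4 had H3K27ac at both oxygen levels, and no hypoxia-only interval was found. Of 11 genes of fatty acid and triglyceride synthesis, 7 had H3K27ac over a start in both lists, including Fasn, which encodes fatty acid synthase. The hypoxia-only interval in the window of Fasn scored 106 but lay nearest to Dus1l. Scd1, which encodes a desaturase of fatty acids, had H3K4me3 alone.

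The last groups hold genes of the filled fat cell. In the group of lipid droplet and lipolysis genes, 7 of 10 had H3K4me3 over a start, 4 had H3K27ac in hypoxia and 3 in normoxia. Plin4, which encodes a coat protein of lipid droplets, made the difference, with a hypoxia-only interval of 3500 bp over its start, a score of 82 and no H3K4me3. Of 7 genes of lipid uptake, 4 had H3K4me3 and 1, Cav1, had H3K27ac in each list. Of 6 adipokines and receptors, 3 had H3K4me3 and 2, the adiponectin receptors Adipor1 and Adipor2, had H3K27ac. Starts without any mark were those of Plin1, Cidec, Cd36, Slc27a1, Aqp7, Lep, Retn, Cfd, Rxrg and Cebpe. Like Fabp4 and Adipoq, most of these genes serve the mature fat cell. Other genes of the same roles, among them Lpl, Lipe, Cidea, G0s2 and Rbp4, had H3K4me3 over a start and no H3K27ac there. The unmarked starts therefore do not set genes of the mature fat cell apart as a group.

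**Figure D5:**
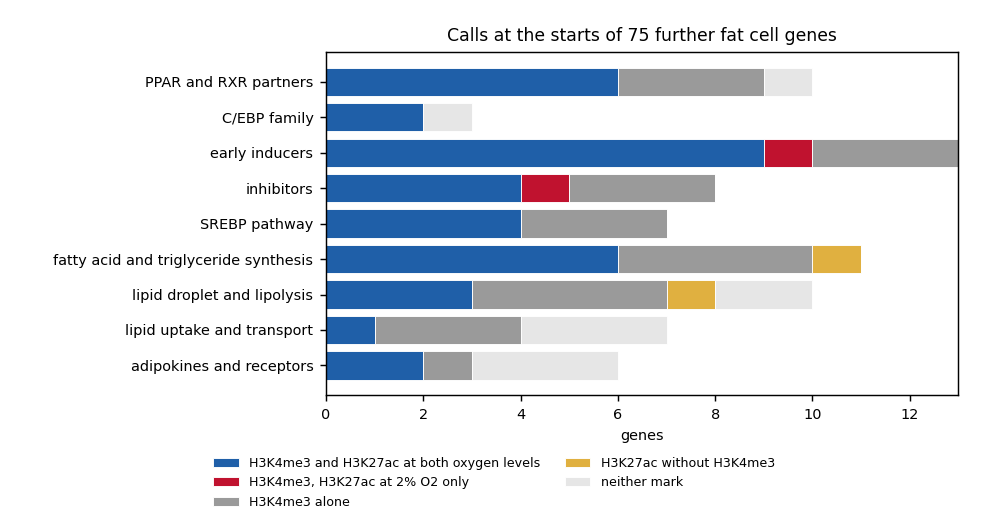
Number of genes (horizontal axis) by the marks over their coding starts for 75 further fat cell genes in 9 roles. At 37 genes both marks were called at both oxygen levels, at 24 H3K4me3 alone, at 10 neither mark, at 2 H3K27ac without H3K4me3, and at 2 H3K4me3 with H3K27ac at 2% O2 alone, Stat5a among the early inducers and Gata2 among the inhibitors.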

How the data were processed

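Per the study's methods, the authors aligned ChIP-seq reads to mm10 (bowtie2), discarded duplicates (Picard MarkDuplicates) and compared hypoxia and normoxia in the differential mode of chromstaR to call intervals. The deposited lists give the position of each interval and the score the authors assigned to it. A list pools both libraries of its group, and input libraries had no list used here.

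Intervals were assigned to a gene when they touched its body or 20000 bp on each side, in the GENCODE M21 basic annotation (GRCm38), and coordinates are 1-based. A start was marked when an interval covered its base. Counts are set beside all 21938 protein-coding genes, without tests. Promoters came from RefSeq. The named genes were the 10 members and 75 pathway genes, and genes like Pparg were ranked by score. The members and lists were chosen with earlier results of these data known. The steps used Python 3.11.15, pandas 2.3.3, numpy 2.4.6 and scipy 1.17.1 and were tested on simulated intervals. Alternatives were other flanks, nearest genes only, leaving out the lowest-scoring 25% of each list, no interval of the other oxygen level within 1000 bp, and other definitions of a start. RefSeq starts were added after the data were seen. A few single genes of these lists are not reported here.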

Additional observations from a re-analysis of the deposited data

How the results depend on the processing

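No paired analysis was possible because a list pools both libraries of its group and has no replicate values. Leaving out a replicate was not possible for the same reason. Of 49 alternative values for 11 results, 37 stayed close to the value given and 12 moved.

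The count of members with a hypoxia-only H3K27ac interval rested on low scores. Without the lowest-scoring 25% of the list it fell from 5 to 1, which was Pparg, and that of the pathway genes from 8 to 3, while the share of all genes became 1.14%. With intervals nearest to the gene alone, the members stayed at 5 and the pathway genes fell to 5 (all genes 2.24%). With no normoxia interval within 1000 bp, 4 members were left, without Srebf1 (all genes 2.3%). A flank of 50000 bp added Cebpb, for 6 members (all genes 7.59%), and gave the pathway genes 1 normoxia-only interval.

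H3K27ac covered 25.2% of the windows in hypoxia and 23.9% in normoxia with a flank of 5000 bp, and 17.1% and 15.6% with 50000 bp. It covered 18.1% and 17.1% with nearest intervals alone, and 15.8% and 14.9% without the lowest-scoring 25%. The hypoxia value was the higher in each of these 4 settings. This order carries no test, since shared intervals hold the same bases and no member had a normoxia-only one. Over all genes the share was also higher in hypoxia, 6.67% against 6.49% with a flank of 20000 bp. At the start of the longest coding sequence alone, Pparg had no mark. There, 7 members had H3K27ac in hypoxia (all genes 34.9%) and 6 in normoxia (all genes 34.2%).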
